A study of Mus musculus with 16 samples.

Results

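The sine oculis homeobox (Six2 to Six6) and eyes absent (Eya1 to Eya4) genes encode a pair of protein families that act together in organ development. They were examined in hematopoietic stem cells (HSCs), the rare marrow cells that give rise to blood for life. The 9 genes Six2, Six3, Six4, Six5, Six6, Eya1, Eya2, Eya3 and Eya4 were taken, of 21851 protein-coding genes in all. They were chosen by family name, with earlier peak results of these data known, so the values below are descriptions and none is tested. Every region listed within a gene body and 5 kb on either side (the gene window) was collected, and a promoter reached 1 kb to each side of any start site.

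A set of 3 histone marks was mapped by chromatin immunoprecipitation with sequencing (ChIP-seq) in HSCs of young (10 weeks) and aged (20 months) C57BL/6 mice, with 2 libraries per mark and age among 16 libraries in 8 groups. The study's methods give the mice as female, the labels name no treatment or engineered allele, and the number of mice behind a ChIP-seq library is not given in the sources used here. Per the labels the cells were Lin- Sca-1+ c-kit+ and CD150+, and negative for CD34, CD48, Flt3 and IL-7. The question was where the marks lie at each age. Only 1 list per mark and age, called pooled below, was analysed, so there are no replicate values and no spread between libraries to set a difference against. Of 10 HSC marker genes, 7 had a promoter H3K4me3 peak in young and 7 in aged HSCs, against 33.8% and 23.3% of all genes. Procr, Mecom, Hlf, Meis1 and Tal1 were among those with one at both ages. Gata2 had one in young and Kit in aged HSCs, whereas Ly6a and Slamf1 had none at either age. None of 4 T cell and 4 B cell markers had one at either age. Among 4 myeloid markers, Csf3r had one at both ages. Of 4 erythroid markers, 2 had one in young HSCs, Epor among them, and 0 in aged HSCs. The share of these lists that came from such cells was not tested.

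The lists differ in length, and this bears on every comparison of the ages. H3K4me3 had 11371 peaks in young and 6723 in aged HSCs, H3K27me3 had 63142 and 20419 regions, and H2AK119ub1 had 2593 and 17768. For H3K4me3 the reads behind each peak could be recovered, and the median summit carried 20 reads in the young list and 19 in the aged one. The lowest background under a peak was 3.70 and 3.52 reads, respectively. Depth is otherwise unknown for the regions of the broad marks, whose listed values are averages over a region.

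The proteins of Six2 to Six6 are homeodomain transcription factors, and EYA proteins are their coactivators, which also carry a phosphatase domain. With PAX and DACH proteins they form a network that directs the eye, ear, kidney and skeletal muscle of the embryo, and several of its genes are known as targets of Polycomb in cells outside those organs. H3K27me3 is deposited by Polycomb repressive complex PRC2 and H2AK119ub1 by PRC1, whereas H3K4me3 is found at active promoters. Promoters that carry both H3K4me3 and H3K27me3 are called bivalent.

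At promoters most of the 9 genes had either Polycomb marks or H3K4me3, whereas Eya4 had both kinds and Eya3 had no region. H3K27me3 was listed at the promoters of 5 genes in young HSCs (Six2, Six3, Six4, Six6 and Eya4), where 16% of all protein-coding genes had it. In aged HSCs it was listed at 3 (Six3, Six4 and Six6), against 8.24% of all genes. The nearest aged region of Six2 lay 1031 bp from a start site, just past the 1 kb of a promoter, and with promoters of 2.5 kb Six2 was counted too, which made 4. H2AK119ub1 was listed at 1 promoter in young HSCs (Six3), against 1.91% of all genes. In aged HSCs it was listed at 5, which are the 5 genes with promoter H3K27me3 in young HSCs, against 14% of all genes. The aged list of this mark is much the longer, and with both lists cut to equal length by q-value Six3 alone was listed at each age. With regions of −log10 q of at least 2 (stricter peaks), 0 genes were listed in young and 2 in aged HSCs. H3K4me3 was listed at the promoters of the same 4 genes at both ages (Six5, Eya1, Eya2 and Eya4), against 33.8% of all genes in young and 23.3% in aged HSCs. Eya4 was thus the single member with H3K4me3 and H3K27me3 at its promoters in young HSCs, a pair found at 2.96% of all genes, and no member had this pair in aged HSCs, where 0.792% of all genes did. H2AK119ub1 and H3K27me3 were both listed at Six3 in young HSCs, against 1.65% of all genes, and at Six3, Six4 and Six6 in aged HSCs, against 4.99%.

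In the gene windows, H3K27me3 was listed at 5 genes at both ages, Six2, Six3, Six4, Six6 and Eya4, against 27.8% of all gene windows in young and 16.5% in aged HSCs. H2AK119ub1 was listed in 3 windows in young HSCs (Six2, Six3 and Six6), against 5.99%, and in 6 in aged HSCs, against 29%. The windows of Six4, Eya2 and Eya4 were in the aged count alone. With lists of equal length those of Eya2, Eya4 and Six6 had 0 aged regions, so Six2, Six3 and Six4 were left. H3K4me3 was listed in 7 windows in young HSCs, against 40.6%, and in 6 in aged HSCs, against 29%. Six3 was the gene that left this count, and Six6 and Eya3 had no H3K4me3 peak in their windows at either age.

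**Figure D1:**
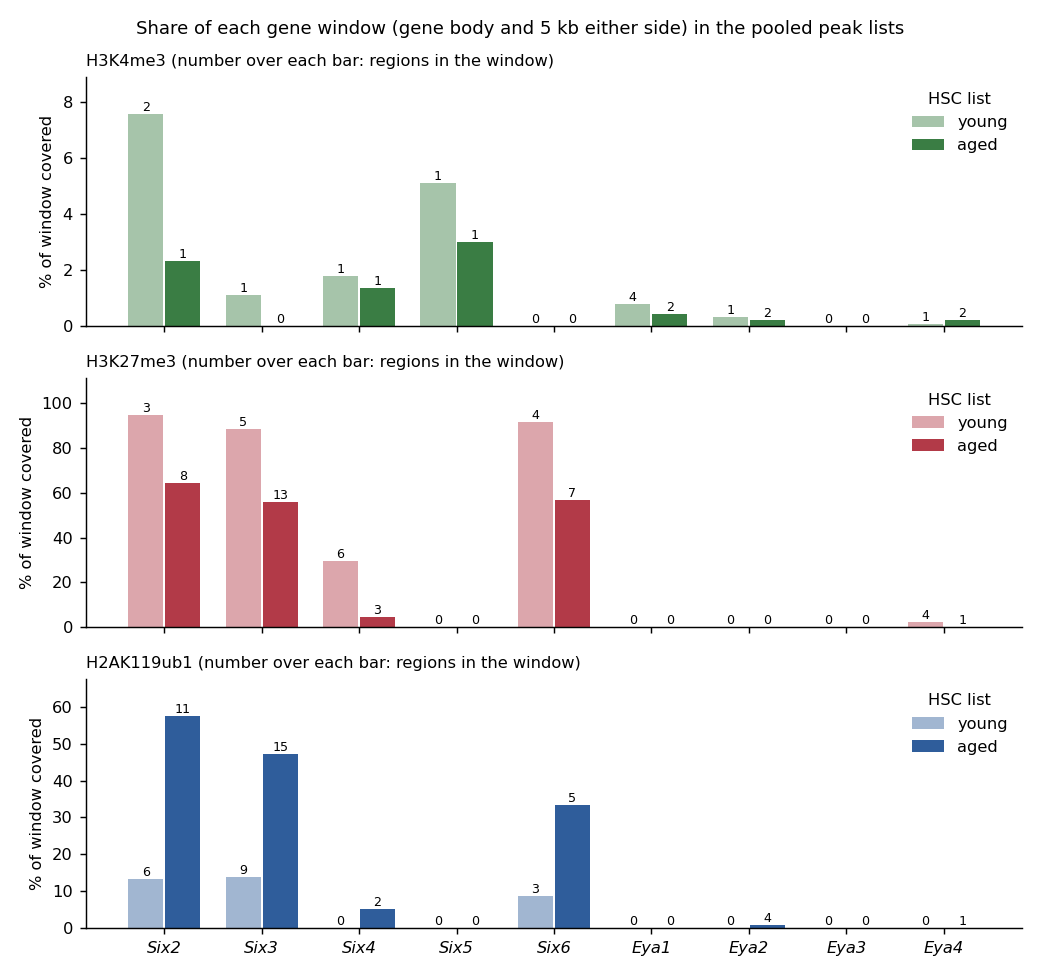
Bars give the percent of each gene window (gene body with 5 kb on either side) covered by each of the 6 pooled lists, with 1 panel per mark, pale bars for young and dark bars for aged HSCs, and the number of regions over each bar. Six2, Six3 and Six6 stand apart for both Polycomb marks, with 88.6% to 94.6% of the window in young H3K27me3, and Eya3 is empty in every panel.

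Six2, Six3 and Six6 lay in wide Polycomb domains. Six2 maintains the progenitors of the nephron in the kidney, and Six3 and Six6 act in the forebrain and the eye. H3K27me3 covered 94.6% of the Six2 window, 88.6% of the Six3 window and 91.7% of the Six6 window in young HSCs. In aged HSCs it covered 64.4%, 55.7% and 56.8%. All 3 windows were over 50% covered at both ages, as were 280 gene windows in young and 70 in aged HSCs, and by covered share they ranked 34, 88 and 56 in young and 20, 48 and 44 in aged HSCs among 21851 windows. Aged over young covered length was 0.681 for Six2, 0.629 for Six3 and 0.619 for Six6, beside 0.259 for the sum of all gene windows. That sum is not a like comparison, because windows with a young region were covered to a median of 4.49%. Wide windows of PAX genes varied, from 75.2% in young to 55.5% in aged HSCs for Pax6 and from 70.2% to 29.2% for Pax2. With stricter peaks the aged share was 39.7% for Six2 and 44.6% for Six3, against 94.6% and 87.5% in young HSCs. That of Six6 changed little.

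The same windows held more H2AK119ub1 in the aged list. It covered 13.2% of the Six2 window, 13.9% of the Six3 window and 8.7% of the Six6 window in young HSCs, and 57.5%, 47.3% and 33.4% in aged HSCs. The covered length was 4.34, 3.41 and 3.84 times as long in aged as in young HSCs, which is less than the 7.95 times found over all gene windows. The lists of this mark differ much in length, and with the aged list cut to as many regions as the young one by q-value, the covered shares in aged HSCs were 22.6%, 14.8% and 0%. Under that setting Six6 was thus lower in aged than in young HSCs and Six3 was about level with its 13.9%.

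In the young list the H3K27me3 domains were nearly unbroken. In Six2 (ENSMUSG00000024134, chromosome 17, minus strand, 4 kb long), 3 regions were listed. The widest, chr17:85677622-85687821, was 10200 bp, had a fold enrichment of 4.22 and a −log10 q of 4.90, and ran from 433 bp past the nearer start site over coding exon and intron into the downstream flank. It ranked 105 by width among the 63142 regions of its list. In Six3 (ENSMUSG00000038805, chromosome 17, plus strand, 15.7 kb), 5 regions were listed and 2 of them held the gene. They were chr17:85605951-85617858, 11908 bp with a fold of 4.06 over the upstream start site, and chr17:85618121-85630497, 12377 bp with a fold of 4.14 and a −log10 q of 4.72 over the other 2 start sites. Both also overlap Six3os1, a gene on the opposite strand, and ChIP-seq does not tell the strands apart. In Six6 (ENSMUSG00000021099, chromosome 12, plus strand, 5.01 kb), 4 regions were listed, and the widest, chr12:72939854-72948977, was 9124 bp with a fold of 4.24 and a −log10 q of 4.97 and covered the start site and the whole gene.

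In the aged list the H3K27me3 regions of these windows were narrower. With neither list cut they were also more numerous in these windows, although the aged list held fewer regions in all (20419 against 63142). H3K27me3 regions numbered 8 in Six2, 13 in Six3 and 7 in Six6, against 3, 5 and 4 in young HSCs. With stricter peaks Six2 had 3 at each age. Over the 3 windows their median width was 774 bp in aged and 2490 bp in young HSCs, and 26 of the 28 aged regions overlapped a young one. The widest aged region of Six2 was chr17:85689305-85692337, which lies upstream of the gene, at 3033 bp with a fold of 3.42 and a −log10 q of 2.19. The widest of Six3 was chr17:85623128-85627908, at 4781 bp with a fold of 3.63 and a −log10 q of 2.62, over coding exon, intron and UTR, and it ranked 9 by width in its list of 20419. The widest of Six6 was chr12:72935706-72939555, at 3850 bp with a fold of 3.59 and a −log10 q of 2.47, upstream of the start site. Most of each aged domain thus stood inside the young one. Of the aged H3K27me3 bases, 97.1% in Six2, 93.1% in Six3 and 97.5% in Six6 were also in young H3K27me3, where the whole aged list had 66.4%. Young H3K27me3 covered 94.6%, 88.6% and 91.7% of these windows. Shares close to these would thus arise for bases placed anywhere in them, so the 66.4% is not a like comparison.

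Most start sites of these genes lay in breaks of the aged domains. Aged H3K27me3 covered 64.4% of the Six2, 55.7% of the Six3 and 56.8% of the Six6 window. A start site placed anywhere in them would thus often fall in a gap. The start sites of Six2, and the inner ones of Six3, also lie close together, so the separate places are few. How often start sites of other genes lie in such gaps was not tested. Both start sites of Six2 were outside H3K27me3 at both ages, in a gap of 485 bp in young HSCs (chr17:85687822-85688306) that was 2109 bp in aged HSCs (chr17:85687196-85689304). The start site of Six6 was inside H3K27me3 in young HSCs and in a gap of 852 bp in aged HSCs (chr12:72939556-72940407). For Six3, the start sites at chr17:85620834 and chr17:85621031 were inside H3K27me3 in young HSCs and in a gap of 1758 bp in aged HSCs (chr17:85620270-85622027), whereas the upstream start site at chr17:85613608 was covered at both ages, in aged HSCs by chr17:85613454-85614212 (759 bp, fold 2.89, −log10 q 1.21). In the aged list H2AK119ub1 covered the start sites in the gaps of Six3 and Six6 but not those of Six2. The region at Six3 was chr17:85620720-85621090, 371 bp with a fold of 4.01 and a −log10 q of 3.21, and the region at Six6 was chr12:72939812-72941782, 1971 bp with a fold of 3.51 and a −log10 q of 2.33. At Six2 the nearest aged H2AK119ub1 region began 615 bp upstream. No region of young H2AK119ub1 covered a start site of these genes, and the nearest lay 1124 bp from a start site in Six2, 166 bp in Six3 and 1007 bp in Six6.

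**Figure D2:**
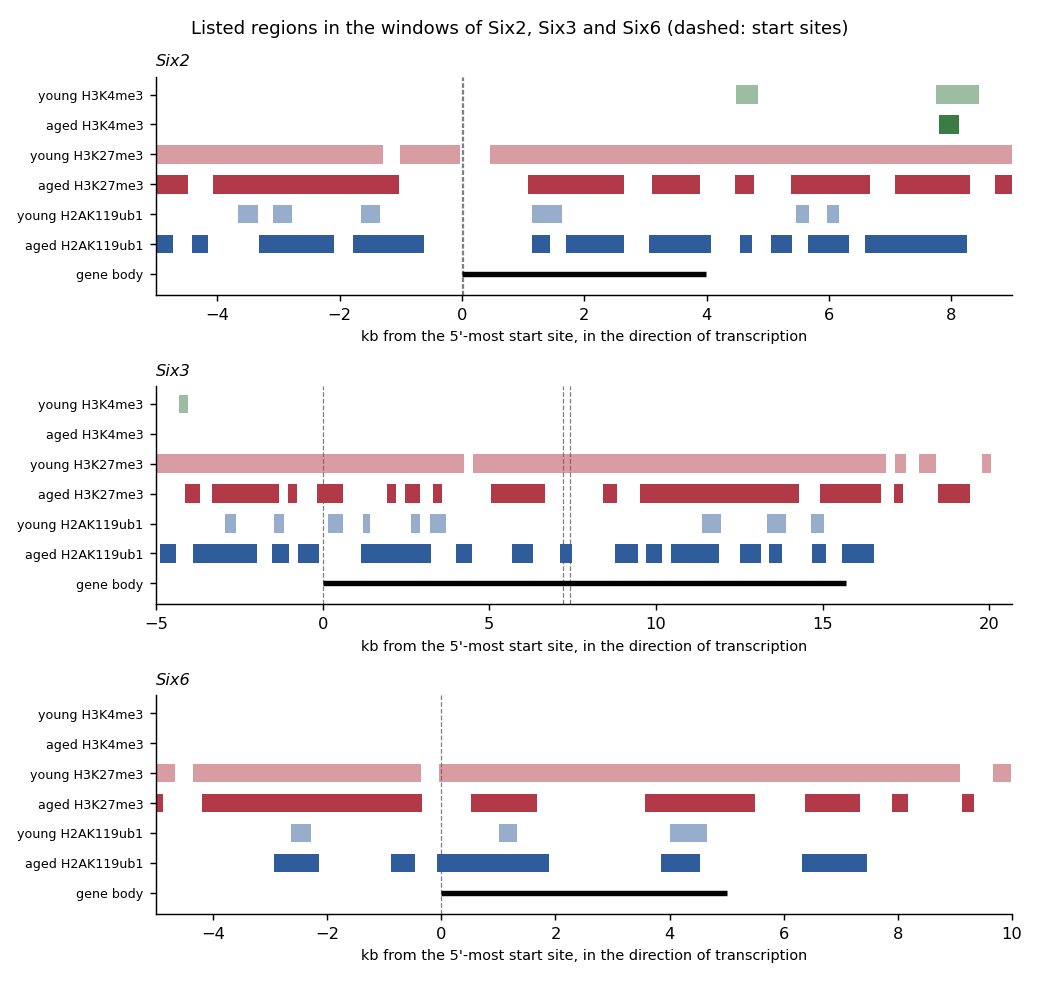
Each panel maps the listed regions of 1 gene window for the 6 pooled lists, with distance in kb from the start site furthest upstream along the direction of transcription, the gene body as a black bar and start sites as dashed lines. Young H3K27me3 is nearly continuous, aged H3K27me3 is broken into 8, 13 and 7 regions, and the dashed lines of Six2, Six6 and the inner start sites of Six3 fall in the breaks.

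The widest H2AK119ub1 regions also differed in place between the ages. In young HSCs they were chr17:85686632-85687130 in the intron of Six2 (499 bp, fold 2.84, −log10 q 1.34), chr17:85624975-85625545 in Six3 (571 bp in a UTR, fold 3.04, −log10 q 1.67) and chr12:72943902-72944541 in Six6 (640 bp, fold 3.41, −log10 q 2.01). In aged HSCs they were chr17:85680019-85681679 downstream of Six2 (1661 bp, fold 3.53, −log10 q 2.43), chr17:85614766-85616868 in an intron of Six3 (2103 bp, fold 3.29, −log10 q 1.89) and the 1971 bp region over the start site of Six6. All 18 young H2AK119ub1 regions of the family were in these 3 windows, and 16 of them overlapped an aged region. Of the bases in young H2AK119ub1, 100% were also in young H3K27me3, against 74.4% in the whole list. Young H3K27me3 covered 88.6% to 94.6% of these windows, so a share near that would arise for bases placed anywhere in them. Of the bases in aged H2AK119ub1 over all 9 windows, 64.4% were in aged H3K27me3, against 26.4% in the whole list, and 92.2% were in young H3K27me3, against 49.8%. Of the 28323 bp of aged H2AK119ub1, 25220 bp lay in the windows of Six2, Six3 and Six6. There aged H3K27me3 covered 55.7% to 64.4% and young H3K27me3 more, so both shares are partly set by the windows. The young extent of H3K27me3 is also the longer one, with 62792 bp in the 9 windows against 33169 bp in aged HSCs.

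The sequence upstream of the start sites was read for CpG dinucleotides, a measure that did not enter the choice of genes. The stretches below are the bases just upstream of the start sites of Six2, Six3 and Six6, in mm10 from the RefSeq promoter table, on the strand of the gene and 5′ to 3′, and capitals mark each CG. They are shown because they lie in or reach the gaps of H3K27me3. Six2 is chr17:85688275-85688504 on the minus strand, Six3 is chr17:85620584-85620833 on the plus strand and Six6 is chr12:72939632-72939881 on the plus strand.
Six2: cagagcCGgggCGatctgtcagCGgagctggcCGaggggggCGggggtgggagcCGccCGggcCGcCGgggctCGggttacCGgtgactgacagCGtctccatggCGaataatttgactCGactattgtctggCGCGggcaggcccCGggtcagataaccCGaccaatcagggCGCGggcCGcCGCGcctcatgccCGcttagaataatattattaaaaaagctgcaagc
Six3: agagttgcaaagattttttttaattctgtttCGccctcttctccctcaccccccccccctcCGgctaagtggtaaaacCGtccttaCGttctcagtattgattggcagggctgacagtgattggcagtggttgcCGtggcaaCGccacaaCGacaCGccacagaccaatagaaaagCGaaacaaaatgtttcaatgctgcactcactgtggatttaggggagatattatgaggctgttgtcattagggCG
Six6: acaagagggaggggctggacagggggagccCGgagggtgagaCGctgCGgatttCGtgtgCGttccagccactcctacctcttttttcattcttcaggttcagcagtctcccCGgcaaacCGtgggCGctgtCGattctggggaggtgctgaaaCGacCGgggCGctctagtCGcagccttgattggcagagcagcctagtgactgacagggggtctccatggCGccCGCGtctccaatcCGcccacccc
Six2 has 24 CG in 230 bp, Six6 has 17 in 250 bp and Six3 has 10 in 250 bp. The Six2 stretch begins in a young H3K27me3 region of 983 bp (chr17:85688307-85689289) and runs into the young gap at its 3′ end.

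Bases that were in H3K27me3 in young HSCs alone were denser in CpG than bases listed at both ages. The values were 5.20 against 2.71 CpG per 100 bp in Six2, 3.99 against 2.40 in Six3 and 3.48 against 1.76 in Six6. The bases of the Six2 window in neither list, which are nearly all in its start site gap, had 15.2 CpG per 100 bp. This order was common among wide domains. Of the 280 gene windows over 50% covered by young H3K27me3, 279 had at least 500 bp in each state, and the young-only bases were denser in 206 of them (73.8%), with a median of 2.71 CpG per 100 bp for young-only bases and 2.24 for bases at both ages. Over the whole lists the order was the other way, at 1.37 for young-only bases and 1.82 for bases at both ages. The read coverage of CpG-rich sequence was not tested.

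**Figure D3:**
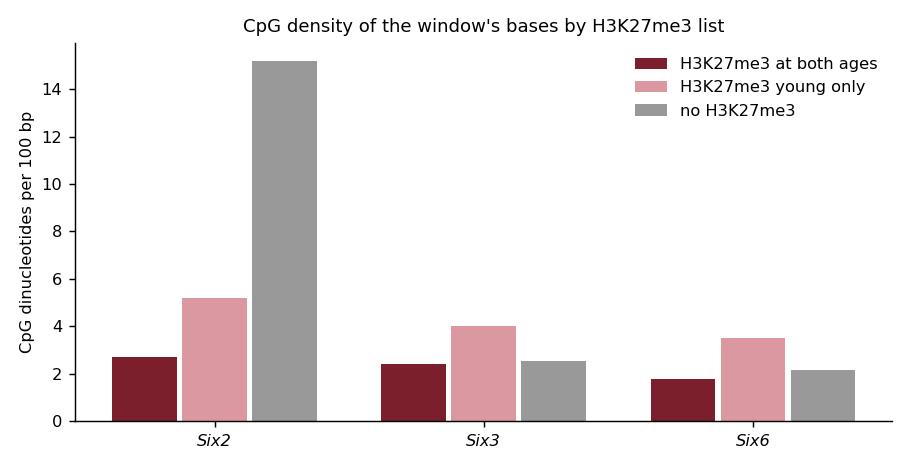
Bars give the number of CpG dinucleotides per 100 bp in the windows of Six2, Six3 and Six6, for bases in H3K27me3 at both ages, in young HSCs only and in neither list. In each gene the young-only bar is higher than the bar for both ages, and the bar for neither list reaches 15.2 in Six2 against 2.52 in Six3 and 2.13 in Six6.

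Six2 and Six3 are neighbours, with 55.0 kb between them (chr17:85629303-85684276). Young H3K27me3 covered 39% of this interval in 19 regions and aged H3K27me3 20.6% in 19, both below the shares in the gene windows. The genes were thus not joined by 1 continuous region. Whether they belong to separate domains cannot be read from a covered share. H2AK119ub1 covered 0.751% of the interval in young and 10.9% in aged HSCs.

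H3K4me3 in these domains was away from the start sites. In Six2 the strongest young peak was chr17:85679828-85680520, 693 bp in the downstream flank and 7734 bp from the start site, with a fold of 4.84, a −log10 q of 6.67 and 23 reads at its summit over a background of 3.96. The aged peak, chr17:85680152-85680477, lay inside it at 326 bp, with a fold of 5.08, a −log10 q of 6.42 and 22 reads over 3.52. Both were wholly inside H3K27me3 of the same age, and the aged one was also wholly inside H2AK119ub1. The young peak of Six3, chr17:85609292-85609581 (290 bp, fold 4.25, −log10 q 4.78, 19 reads), lay 4027 bp upstream of the nearest start site and had no counterpart in aged HSCs. Six6 had none at either age, its nearest H3K4me3 peak being 36.6 kb away in young and 113 kb away in aged HSCs.

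Six4 and Eya4 had H3K27me3 over their start sites in young HSCs and little of it in aged HSCs. Six4 acts in muscle development and Eya4 is known from the inner ear and the heart. In Six4 (ENSMUSG00000034460, chromosome 12, minus strand, 13.8 kb), H3K27me3 covered 7022 bp of the window in 6 regions in young HSCs and 1091 bp in 3 regions in aged HSCs, a ratio of 0.155. In Eya4 (ENSMUSG00000010461, chromosome 10, minus strand, 248 kb), it covered 6020 bp in 4 regions in young HSCs and 233 bp in 1 region in aged HSCs, a ratio of 0.0387. Both ratios are below the 0.259 of all gene windows, whereas those of Six2, Six3 and Six6 are above it. Cutting the young list to the length of the aged one left 23.1% of the Six4 window and 1.86% of the Eya4 window covered in young HSCs, beside 29.4% and 2.33% with the whole list. In aged HSCs the shares were 4.57% and 0.0904%.

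The young region of Six4 was chr12:73109744-73114545, 4802 bp with a fold of 3.64 and a −log10 q of 3.51, over both start sites. In aged HSCs the start sites were in a gap of 2261 bp (chr12:73111636-73113896). The promoter call in aged HSCs rests on chr12:73113897-73114286, a region of 390 bp that lay 441 bp upstream of the nearer start site, with a fold of 3.05 and a −log10 q of 2.36, and the widest aged region, chr12:73111198-73111635 (438 bp, fold 3.20, −log10 q 1.61), lay in the intron. An H3K4me3 peak stood at the same place in the intron at both ages. It was chr12:73111415-73111842 in young HSCs (428 bp, fold 3.83, −log10 q 3.89, 18 reads) and chr12:73111349-73111677 in aged HSCs (329 bp, fold 4.42, −log10 q 4.71, 19 reads). It is 1583 bp and 1748 bp from the nearest start site, so Six4 is not counted among promoters with H3K4me3, although it would be with a promoter of 2.5 kb on either side. In the aged list this peak was wholly covered by an H2AK119ub1 region, chr12:73111195-73111893 (699 bp, fold 3.86, −log10 q 2.87), and for 287 of its 329 bp by H3K27me3. The intron of Six4 thus held regions of all 3 marks in aged HSCs. A further aged H2AK119ub1 region, chr12:73112210-73112731 (522 bp, fold 3.23), gave the promoter call of this mark, and no region of it was listed in the window in young HSCs.

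In Eya4 the young regions were chr10:23345370-23350156, 4787 bp with a fold of 3.56 and a −log10 q of 3.00 over 3 of the 4 start sites, and chr10:23350458-23351116, 659 bp with a fold of 3.28 over the other. The single aged region, chr10:23128070-23128302 (233 bp, fold 2.71, −log10 q 1.11), was in an intron 222 kb from the start sites, and no base of H3K27me3 was shared between the ages. Eya4 was the only member with more H3K4me3 in the aged list, at 567 bp in 2 peaks against 224 bp in 1. The peak present at both ages was chr10:23348812-23349035 in young HSCs (224 bp, fold 4.04, −log10 q 4.22, 18 reads) and chr10:23348917-23349223 in aged HSCs (307 bp, fold 5.08, −log10 q 6.42, 22 reads). An aged H2AK119ub1 region of 200 bp, chr10:23349089-23349288 (fold 3.44, −log10 q 1.99), overlapped the latter by 135 bp.

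**Figure D4:**
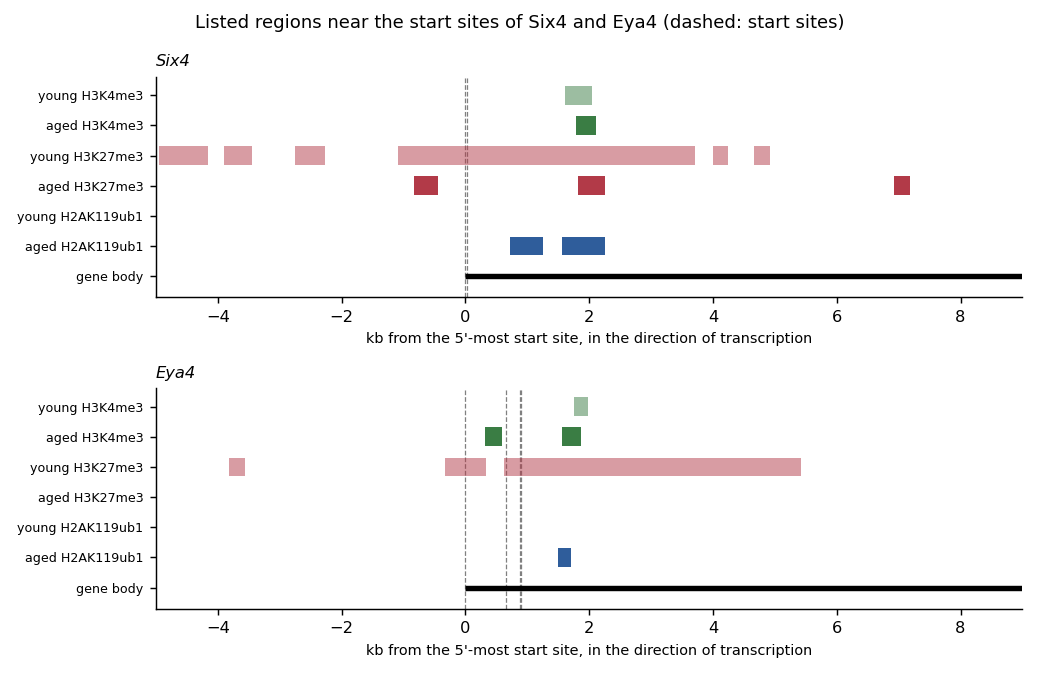
The regions of the 6 pooled lists near the start sites of Six4 and Eya4 are mapped by distance in kb from the start site furthest upstream, with the gene body as a black bar and start sites as dashed lines. The young H3K27me3 regions of 4802 bp and 4787 bp have no aged counterpart of like width, and the H3K4me3 peaks end within 2107 bp of that start site in both genes.

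Six5, Eya1 and Eya2 carried H3K4me3 at a promoter at both ages and no H3K27me3 in their windows. Six5 is a homeodomain factor whose neighbour is Dmpk, the myotonic dystrophy gene, Eya1 acts in the ear and kidney, and Eya2 is a coactivator known from muscle. The single start site of Six5 (ENSMUSG00000040841, chromosome 7, plus strand, 3.96 kb) was covered by chr7:19094150-19094861 in young HSCs, 712 bp with a fold of 3.17, a −log10 q of 3.23 and 21 reads over a background of 5.94. In aged HSCs it was covered by chr7:19094212-19094633, 422 bp with a fold of 5.53, a −log10 q of 7.63 and 24 reads over 3.52. The aged peak lay wholly within the young one. By fold it ranked 231 among 6723 aged peaks, whereas the young peak ranked 10142 among 11371.

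In Eya1 (ENSMUSG00000025932, chromosome 1, minus strand, 141 kb), 4 peaks were listed in young and 2 in aged HSCs, all within 3867 bp of the start site furthest upstream. The strongest were chr1:14309842-14310147 in young HSCs (306 bp, fold 4.89, −log10 q 6.54, 22 reads over 3.70) and chr1:14309993-14310253 in aged HSCs (261 bp, fold 5.31, −log10 q 7.02, 23 reads over 3.52). The former covered 1 of the 4 start sites and the latter 3, and they shared 155 bp. The other young peaks, of 243 to 338 bp, lay downstream of this one in UTR or intron and overlapped no aged peak.

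In Eya2 (ENSMUSG00000017897, chromosome 2, plus strand, 177 kb), the peaks were at the inner of the 2 start sites, at chr2:165655298, and none was listed at the outer one. The young peak was chr2:165656104-165656711 (608 bp, fold 3.03, −log10 q 2.80, 20 reads over 5.94), 806 bp downstream of the start site. The strongest aged peak was chr2:165655338-165655540 (203 bp, fold 4.42, −log10 q 4.71, 19 reads over 3.52), 40 bp from it. These 2 peaks did not overlap, so the promoter calls of Eya2 at the 2 ages rest on different places. A weaker aged peak, chr2:165656354-165656554 (201 bp, fold 3.76), lay inside the young one and outside the promoter. Eya2 was the single gene without H3K27me3 that had H2AK119ub1 in its window, with 4 aged regions of 200 to 500 bp and folds of 3.14 to 3.34, all in introns, from 1810 bp to 23333 bp upstream of the inner start site. The widest was chr2:165636064-165636563 (500 bp, fold 3.14, −log10 q 1.5), and none of their 1682 bp was in H3K27me3 at either age. All 4 were lost with stricter peaks and with lists of equal length.

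**Figure D5:**
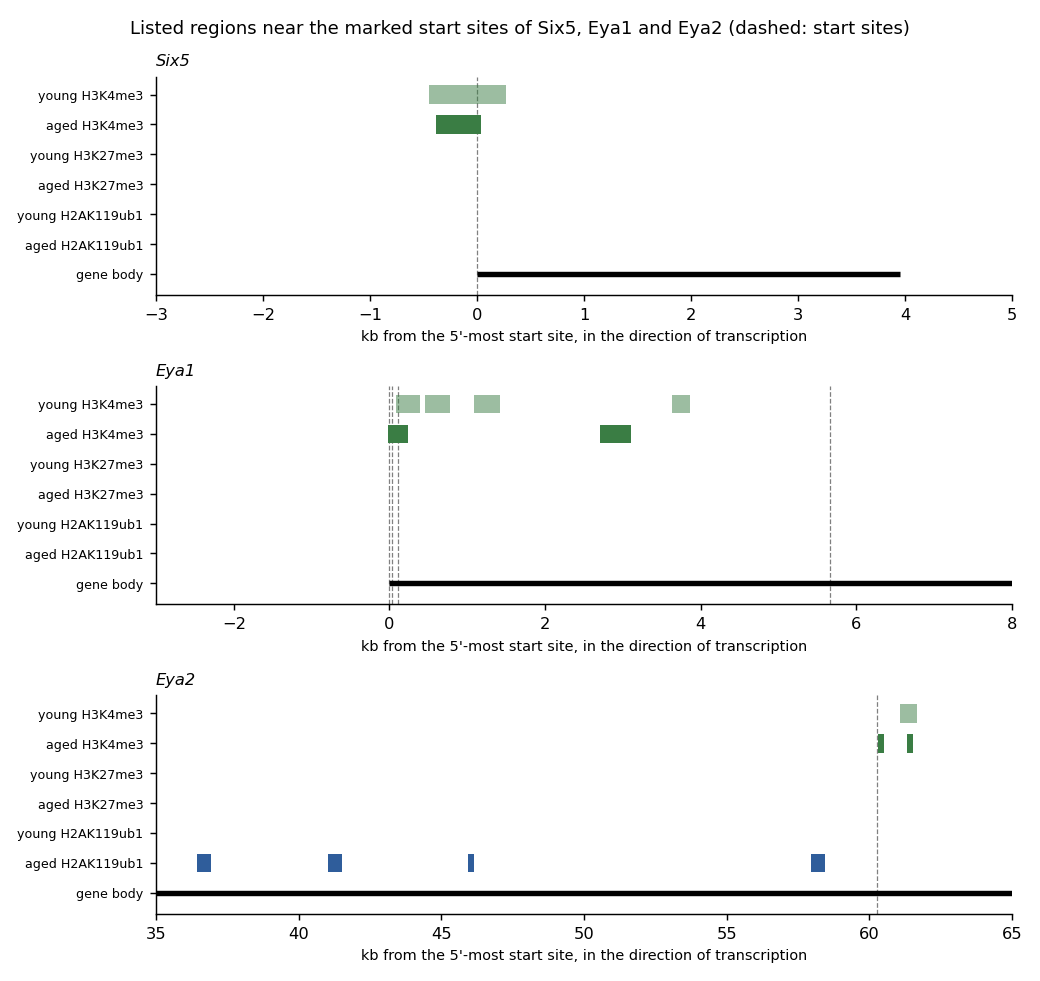
The regions of the 6 pooled lists near the marked start sites of Six5, Eya1 and Eya2 are mapped by distance in kb from the start site furthest upstream, with the gene body as a black bar and start sites as dashed lines. H3K4me3 is the only mark at Six5 and Eya1, and Eya2 has 4 further H2AK119ub1 regions in the aged list upstream of its inner start site.

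Eya3 (ENSMUSG00000028886, chromosome 4, plus strand, 85.8 kb) had no region of any list in its window. Measured from the start sites, the nearest was an aged H2AK119ub1 region 92.9 kb away, and the nearest H3K4me3 peak was 103 kb away in young and 109 kb away in aged HSCs. Measured from the whole gene, the distance is shorter, and with 20 kb flanks 1 aged H2AK119ub1 region entered the window. Eya3 is known for broad expression, and a lack of listed peaks says that none passed the authors' threshold at this depth, not that the mark is absent. Among all genes, 9827 (45%) likewise had no region at a promoter in any of the 6 lists. Its sequence was not poor in CpG. The stretch upstream of its start sites (chr4:132638796-132638986) is set beside that of Six5 (chr7:19094294-19094543), which carried H3K4me3 at both ages, both on the plus strand in mm10 with each CG in capitals.
Eya3: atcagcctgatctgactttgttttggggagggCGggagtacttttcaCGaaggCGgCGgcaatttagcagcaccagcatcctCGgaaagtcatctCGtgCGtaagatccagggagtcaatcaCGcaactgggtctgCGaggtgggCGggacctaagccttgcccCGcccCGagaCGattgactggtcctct
Six5: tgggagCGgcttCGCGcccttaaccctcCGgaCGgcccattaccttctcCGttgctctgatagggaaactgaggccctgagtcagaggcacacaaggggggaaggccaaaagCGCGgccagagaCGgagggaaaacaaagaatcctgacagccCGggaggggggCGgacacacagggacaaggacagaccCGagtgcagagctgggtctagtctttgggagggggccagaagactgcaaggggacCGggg
The first has 13 CG in 191 bp, an observed over expected CpG of 0.825, and the second has 13 in 250 bp, a value of 0.546. RefSeq promoter sequences were matched for 7 of the 9 genes, all but Eya1 and Eya2.

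Over promoters of 1 kb on either side, most start sites of the family were rich in CpG. Several start sites of 1 gene lie close together, as in Six2, Six4, Eya3 and Eya4, and share most of their sequence. The counts below are therefore not of separate promoters. The median observed over expected CpG of its 21 start sites was 0.683, beside 0.475 for all 41438 start sites of protein-coding genes, and 17 of 21 were above 0.6, against 34.4% of all. The start sites of Six2 had the highest values, 0.858 and 0.861, above 95.5% and 95.7% of all start sites. Eya3 at 0.683 and 0.684 was level with Eya4 at 0.686 to 0.700 and Six4 at 0.664 and 0.674, although these genes had different marks. The lowest value, 0.254, was at the inner start site of Eya2, which carried H3K4me3, while its outer start site had 0.636 and no peak. In Six3 the upstream start site had 0.558 and the inner ones 0.636 and 0.708, and Six6 had 0.555.

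Few genes shared the promoter calls of Eya4. The same 6 calls as Eya4 were found for 58 genes (0.265%), itself included. They include the aged H2AK119ub1 call, which rests on the single region of 200 bp and was lost with stricter peaks and with lists of equal length. Those of Six3 were found for 191 genes, those of Six2 for 387, those shared by Six4 and Six6 for 570 and those shared by Six5, Eya1 and Eya2 for 3283.

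Other developmental families carried the Polycomb marks at a larger share of their promoters. Promoter H3K27me3 was listed at 9 of 9 PAX genes in young and 8 of 9 in aged HSCs, at 13 of 16 T-box genes at both ages and at 12 of 12 LIM homeobox genes at both ages, beside 5 and 3 of the 9 genes here and 16% and 8.24% of all genes. Promoter H2AK119ub1 was listed at 4 PAX, 6 T-box and 5 LIM homeobox genes in young HSCs and at 8, 12 and 12 in aged HSCs, beside 1 and 5 here and 1.91% and 14% of all genes. These counts are of the whole lists, and with lists of equal length 1 of the 9 genes was left in aged HSCs. The median share of the window in young H3K27me3 was 48.7% for PAX, 38.5% for T-box and 64.2% for LIM homeobox genes, beside 2.33% for the 9 genes, whose highest value (94.6%, Six2) was close to those of the T-box (96.0%) and LIM homeobox (95.0%) genes. The family was thus split, with Six2, Six3 and Six6 at the level of the widest domains of these families and Six5, Eya1, Eya2 and Eya3 at 0. Promoter H3K4me3 was listed at 4 of the 9 genes at each age, at 3 PAX genes in young and 0 in aged HSCs, at 6 and 1 LIM homeobox genes and at 4 and 4 T-box genes, beside 33.8% and 23.3% of all genes. Of the 4 young calls here, those of Six5 and Eya2 were lost with stricter peaks (−log10 q of at least 4 for this mark) and with lists of equal length. These differences between families were not tested.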

How the data were processed

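The 6 pooled peak lists, 1 per mark and age, were analysed. The authors cut cross-linked chromatin by sonication and with micrococcal nuclease, and used Bowtie2 for alignment to mm10. Peak calling is not described for these lists, but MACS2 2.2.6 is named in the submitters' processing notes and the layout is that of MACS narrow peaks (H3K4me3) and broad regions. Each deposited list gives a score, the fold enrichment over background as a ratio, and the −log10 of the p-value and of the q-value, as the authors' caller wrote them. Names of the broad regions carry 1 library number, so whether both replicates entered those lists is uncertain. The authors' threshold, duplicated reads and the pooling decide what is listed. Files of single libraries were not used here, and a few items are not reported here.

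Regions on chromosomes 1 to 19, X and Y were intersected, at 1 bp or more, with gene windows and promoters of protein-coding transcripts in the basic set of GENCODE M21 (21851 genes, 41438 start sites), with pandas 2.3.3, numpy 2.4.6 and scipy 1.17.1 under Python 3.11.15. Covered length counts each base once. The genome sequence was GRCm38.p6, the assembly of mm10, whose RefSeq promoters equal the genome at the printed places. Summit reads of H3K4me3 were solved from (reads + 1) / (background + 1) = fold and the Poisson p-value, within 0.005 of the listed −log10 p for all 18094 peaks. Both steps were tested on simulated data and returned 100% of the known answers. Figures were drawn with matplotlib 3.10.9.

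Members, gene lists and alternatives were chosen with earlier results of these data known. For every gene and list, the widest region (broad marks) or the peak of highest −log10 q (H3K4me3) is given, with any region over a start site. With 1 list per mark and age no test was made. Shares are set beside the percent of all protein-coding genes. The alternatives were stricter peaks (−log10 q of at least 4 for H3K4me3 and 2 for the broad marks), lists cut to equal length, 50% of the region inside, other promoter and flank widths, start sites of all transcripts and joined regions.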

Additional observations from a re-analysis of the deposited data

How the results depend on the processing

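No paired analysis was possible because there was 1 list per mark and age and no result comes from a test. Of 270 promoter calls by gene, list and alternative, 246 were as reported and 24 changed. Many of these were promoters without a region, and stricter peaks, equal lists and 50% of the region inside can only remove a call. The unchanged count therefore does not measure how stable the listed regions were. With stricter peaks, members with a promoter region numbered 2 for young H3K4me3, 0 for young and 2 for aged H2AK119ub1, and regions in the gene windows numbered 6 for young H3K4me3, 17 for aged H3K27me3, 4 for young and 20 for aged H2AK119ub1. With lists cut to equal length, promoter members numbered 2 for young H3K4me3 and 1 for aged H2AK119ub1, and window regions 6 for young H3K4me3, 14 for young H3K27me3 and 11 for aged H2AK119ub1. The promoter H3K4me3 of Six5 and Eya2 in young HSCs, with −log10 q of 3.23 and 2.80, was lost under both settings, and with equal lengths, of the 5 aged H2AK119ub1 promoters Six3 was the single one kept. With 50% of a region inside, young H3K27me3 had 2 promoter members, because wide regions reach past a promoter. With promoters of 2.5 kb, young H2AK119ub1 had 3. In gene bodies alone, window regions numbered 10 for young and 15 for aged H3K27me3 and 10 for young and 23 for aged H2AK119ub1, and with 20 kb flanks 47 for young and 52 for aged H3K27me3. Joining regions within 1 kb left 9 and 13 H3K27me3 regions and 16 aged H2AK119ub1 regions. Covered shares under stricter and equal lists were added after seeing the data. Under stricter peaks H3K27me3 covered 39.7% of the Six2, 44.6% of the Six3 and 54.6% of the Six6 window in aged HSCs, against 94.6%, 87.5% and 89.5% in young HSCs. The ages were in the same order for each of these genes as in the whole lists. Depth is unknown for the broad lists, and a promoter without a region lacks only a listed one.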

Other observations

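Other genes of the PAX-SIX-EYA-DACH network, on a list of 8 partners, had Polycomb marks at the PAX genes and not at the DACH genes. Promoter H3K27me3 was listed at 6 of the 8 in young and 5 in aged HSCs, against 16% and 8.24% of all genes. Promoter H2AK119ub1 was listed at 2 in young and 6 in aged HSCs, against 1.91% and 14% of all genes. Pax2, Pax3, Pax6, Pax7 and Pax8 had promoter H3K27me3 at both ages, with 70.2%, 48.7%, 75.2%, 41.1% and 13.4% of the window covered in young and 29.2%, 17.9%, 55.5%, 17.3% and 3.70% in aged HSCs. Dach1, a corepressor in this network, had no H3K27me3 or H2AK119ub1 in its window at either age, and carried 5 H3K4me3 peaks in young and 2 in aged HSCs, the widest of 793 and 794 bp. Dach2 had 1 H3K4me3 peak of 200 bp in young HSCs and no region in aged HSCs. Sobp had H3K27me3 over 8.53% of its window in young and 1.51% in aged HSCs, with promoter H3K27me3 in young HSCs and promoter H2AK119ub1 in aged HSCs.

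Of 10 genes known to be regulated by proteins of these families in muscle, kidney or ear, 6 had promoter H3K27me3 in young HSCs (Fgf10, Gdnf, Myf5, Myod1, Osr1 and Sall1), and the 5 others than Myf5 had it in aged HSCs, where 16% and 8.24% of all genes had it. Promoter H3K4me3 was listed at 4 of the 10 at both ages (Ccnd1, Ezr, Fgf10 and Osr1), against 33.8% of all genes in young and 23.3% in aged HSCs. Promoter H2AK119ub1 was listed at 0 of them in young and 5 in aged HSCs (Fgf10, Gdnf, Osr1, Sall1 and Slc12a2), where 1.91% and 14% of all genes had it.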
